A study of Homo sapiens with 12 samples.

Results

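The comparison described here is the difference in the late response to epidermal growth factor (EGF) between cells with and without an shRNA against LAD1. It rests on 8 of the 12 libraries of the series, those taken at 0 and 240 min of EGF. The cells are HCC70, an established line from a human breast tumour of the basal, triple-negative kind. Cells stably expressing a scrambled shRNA are called scramble cells, and cells stably expressing an shRNA directed at LAD1 are called shLAD1 cells. All 4 groups were starved of serum overnight. The 0 min groups received no EGF, and the 240 min groups received EGF at 50 ng/ml. Each group has 2 libraries, numbered 1 and 2 in the labels. For each gene the change from 0 to 240 min was taken within number 1 and within number 2 of each kind of cell. The scramble change was then subtracted from the shLAD1 change, on the scale of log2(normalized count + 1). A normalized count is a read count divided by a size factor of its library. A difference above 0 therefore means that the gene rose more, or fell less, in shLAD1 cells. More and less refer to this log2 scale throughout. Where levels at 0 min differ, the order can be the other way in counts. LAD1 went from a mean of 6165 to 9648 normalized counts in scramble cells and from 978 to 2416 in shLAD1 cells. No library without EGF was taken at 240 min, so EGF cannot be told apart from time and handling. The labels name 1 shRNA against LAD1 and do not say whether a line is a clone or a pool.

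EGF binds its receptor EGFR, a receptor tyrosine kinase, and switches on the ERK kinase cascade among other pathways. A first wave of immediate early transcription factors follows within an hour, and a later wave brings feedback inhibitors, cytokines, adhesion proteins and cytoskeletal proteins. LAD1 encodes ladinin-1, a protein of the epithelial basement membrane zone, which the series title describes as a filamin binder that acts on actin in response to EGF. The comparison asks which late responses differ between shLAD1 and scramble cells. An effect of the shRNA cannot be told apart from other differences between these lines.

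The late responses of the 2 kinds of cell differed at few genes. In limma-trend 27 of 13950 genes tested passed (0.194%), and are referred to as called. The threshold was 0.05 after Benjamini-Hochberg adjustment. The cytokine genes CXCL8 and LIF, the early response genes IER3 and MAFF, and LAD1 itself rose more in shLAD1 cells. The peptidase gene CPA4, the receptor gene IL6R, the phosphodiesterase gene PDE4B and the actin-binding genes MYO1E, PALLD and MISP rose less. The actin nucleator gene SPIRE1 went the other way, with a difference of 0.43. Of the 35 tested genes in a list of actin cytoskeleton genes none was called. In all, 13 genes had a difference above 0 (0.0932% of genes tested) and 14 a difference below 0 (0.100%). The differences ran from -1.52 for PDE4B to 1.74 for CXCL8. At 40 min the mean change from 0 min was 0.87 in scramble and 2.70 in shLAD1 cells for CXCL8. It was 2.41 and 3.92 for LIF, 2.37 and 2.93 for IER3, and 3.15 and 3.97 for MAFF. These genes thus differed at 40 min already, and their difference is not particular to 240 min. The LAD1 values were -0.001 and 0.14. Differences at 40 min were not tested here.

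This count depends on treating each combination of shRNA and number as a cell population with its own baseline, which makes 4 populations. Without that replicate block limma-trend called 0 genes, with 133 at an unadjusted p under 0.05 against 1013 (7.26%) with it. With a block by number over both kinds of cell it called 0 genes, with 340 at an unadjusted p under 0.05. With the 4 populations edgeR called 38 genes on the recovered reads, voom 35 and DESeq2 6, and limma-trend called 40 on the 8 libraries alone, 25 of them among the 27. Leaving out 1 library moved the count to 5 without scramble 0 min number 2, to 8 without scramble 240 min number 2, and to 8 without shLAD1 0 min number 1. It moved to 14 without shLAD1 0 min number 2, 42 without scramble 240 min number 1, 59 without shLAD1 240 min number 1 and 103 without shLAD1 240 min number 2. Called in each of the 12 fits that left out a library were LAD1, LIF, IER3 and CPA4, and these were also called by edgeR, voom and DESeq2. Without scramble 0 min number 2 the 5 called genes were these and GBP2.

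Over all genes the 2 numbers shared little. The differences of number 1 and number 2, which have no library in common, had the same sign for 51.4% of the 13950 genes, and across genes Pearson's r was 0.015. Among the 3517 genes with a mean of at least 1000 normalized counts the same values were 53.7% and 0.215. Genes do not vary independently, so these shares only describe the table. The 27 called genes had the same sign in both numbers, which their selection on these same values largely fixes.

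**Figure D1:**
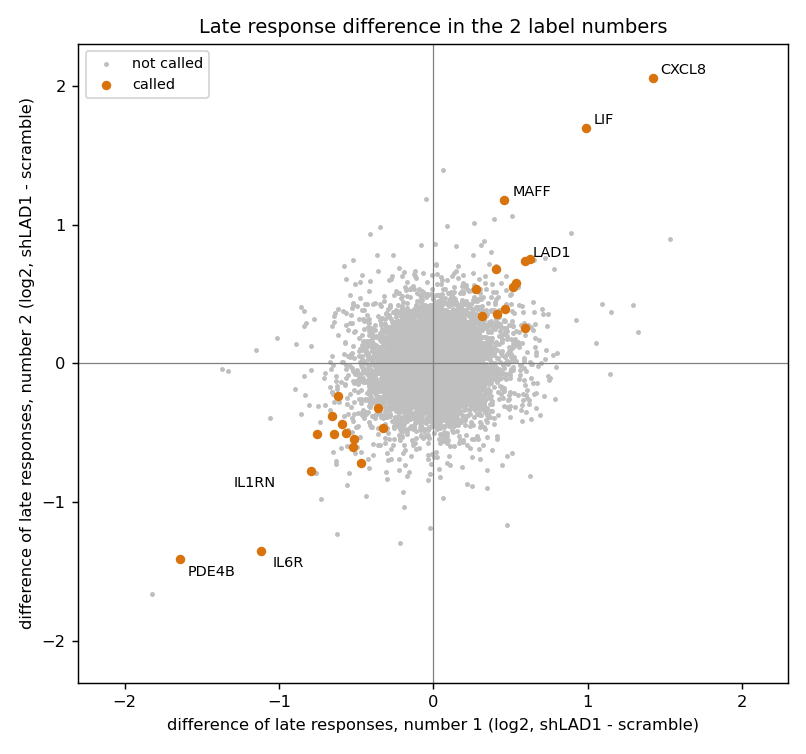
Difference of the late responses (shLAD1 minus scramble, log2 scale) in number 1 on the horizontal axis and number 2 on the vertical axis, for genes with a mean of at least 100 normalized counts; orange points are the called genes. The called genes lie along the diagonal, from PDE4B at the lower left to CXCL8 at the upper right, at or beyond the edge of a round cloud of other genes.

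LAD1 RNA was the target of the shRNA and also responded to EGF. Scramble cells had 5925 and 6406 normalized counts of LAD1 at 0 min in numbers 1 and 2, and 9102 and 10194 at 240 min. In shLAD1 cells the counts were 1091 and 865 at 0 min, and 2535 and 2297 at 240 min. Every shLAD1 library lay below every scramble library at both times, and every library at 240 min lay above those of its own kind at 0 min. LAD1 rose by 0.64 ± 0.05 (standard error of the fit, n = 2 libraries per group here and below) in scramble cells and by 1.31 ± 0.05 in shLAD1 cells. The difference was 0.67 ± 0.07 (limma-trend adjusted p = 1.42e-05), with 0.60 in number 1 and 0.74 in number 2. The level gap between the kinds of cell went from -2.66 at 0 min to -2.0 at 240 min on the log2 scale.

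The 3 largest differences above 0 among called genes were those of CXCL8, LIF and MAFF. CXCL8 encodes interleukin 8, a chemokine that attracts neutrophils. Scramble cells had 119 and 109 normalized counts of CXCL8 at 0 min and 496 and 422 at 240 min. In shLAD1 cells the counts were 17.5 and 30.5 at 0 min, and 204 and 503 at 240 min. The shLAD1 libraries were lower at 0 min without overlap, and at 240 min the groups overlapped, since number 2 had reached the scramble level and number 1 had not. CXCL8 rose by 2.0 ± 0.17 in scramble cells and by 3.74 ± 0.17 in shLAD1 cells, a difference of 1.74 ± 0.24 (limma-trend adjusted p = 0.0029). The call was lost with edgeR (adjusted p = 0.0775) and voom (adjusted p = 0.164). It was also lost without either 0 min library of shLAD1 cells, without scramble 0 min number 2 and without scramble 240 min number 2, at adjusted p from 0.0683 to 0.175.

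LIF encodes leukaemia inhibitory factor, a cytokine of the interleukin 6 family. LIF stood at 135 and 149 normalized counts in scramble cells at 0 min and at 550 and 442 at 240 min. In shLAD1 cells it stood at 47.2 and 66.2 at 0 min and at 389 and 641 at 240 min. The groups were apart at 0 min and overlapped at 240 min. The rise was 1.79 ± 0.10 in scramble cells and 3.14 ± 0.10 in shLAD1 cells, and the difference was 1.34 ± 0.14 (limma-trend adjusted p = 2.81e-05). It was 0.99 in number 1 and 1.70 in number 2. At 40 min the LIF counts were 739 and 773 in scramble cells and 690 and 1077 in shLAD1 cells, so the groups already overlapped then.

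IER3, an immediate early gene linked to cell survival, followed the same course at higher counts. Its normalized counts in scramble cells were 1518 and 1310 at 0 min and 3671 and 3174 at 240 min. In shLAD1 cells they were 634 and 918 at 0 min and 2189 and 3261 at 240 min. The 0 min groups did not overlap and the 240 min groups did. IER3 rose by 1.28 ± 0.05 in scramble cells and by 1.81 ± 0.05 in shLAD1 cells (difference 0.53 ± 0.07, limma-trend adjusted p = 0.000896), with 0.51 and 0.55 in the 2 numbers.

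MAFF encodes a small Maf transcription factor. Its counts were 85.9 and 84.3 in scramble cells at 0 min and 395 and 266 at 240 min. In shLAD1 cells they were 62.6 and 53.9 at 0 min and 398 and 387 at 240 min. Scramble number 2 was the low library at 240 min. The difference was 0.82 ± 0.16 (limma-trend adjusted p = 0.027), larger in number 2 (1.17) than in number 1 (0.46). MAFF was not called with edgeR, voom or DESeq2, with the 8 libraries alone or without a filter on low values. It was also not called without scramble 0 min number 2, scramble 240 min number 2 or either shLAD1 0 min library.

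**Figure D2:**
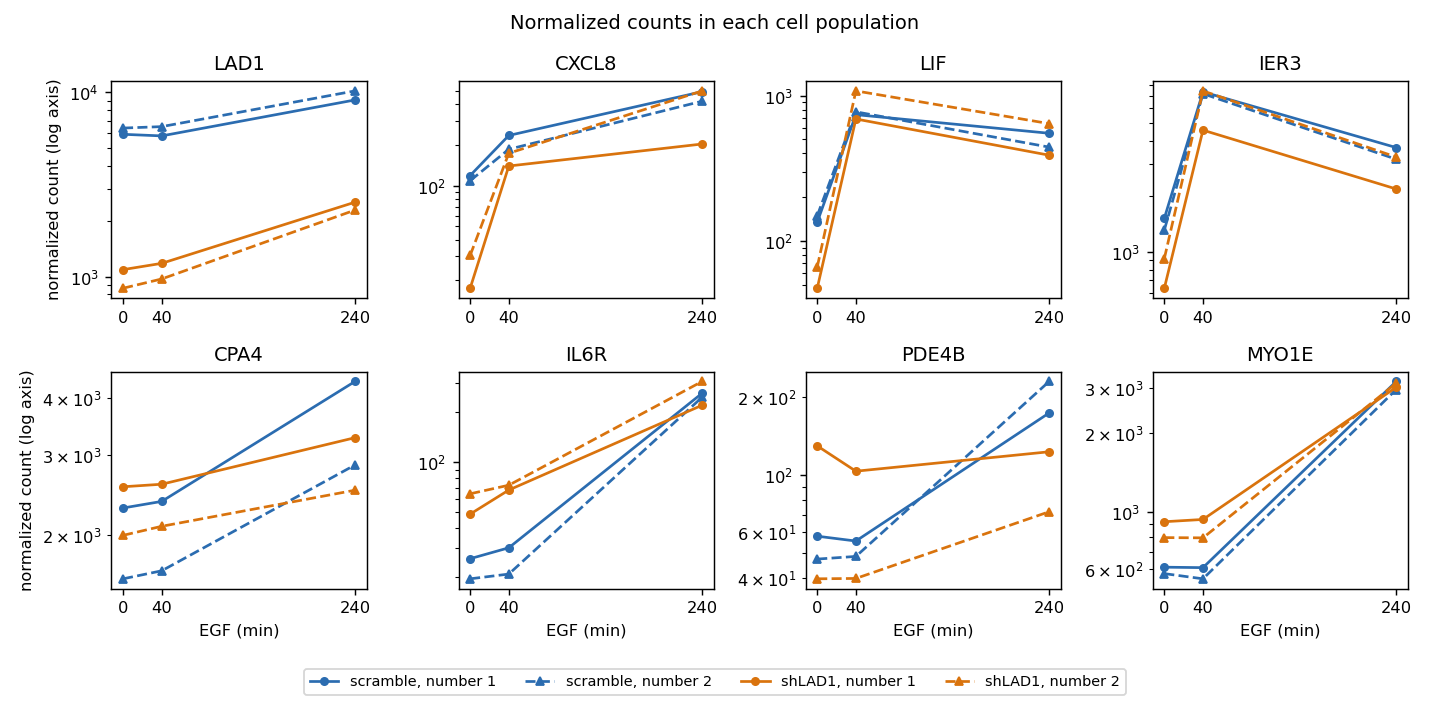
Normalized counts (log axis) of 8 called genes against minutes of EGF, with a line for each of the 4 cell populations; blue is scramble, orange is shLAD1, circles and solid lines are number 1, triangles and dashed lines are number 2. CXCL8, LIF and IER3 start lower in shLAD1 cells and lie close to the scramble lines by 240 min except number 1 of CXCL8 and IER3, while IL6R and MYO1E start higher and end beside them.

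Further genes with a larger rise in shLAD1 cells code for a Notch ligand, a transcription factor and a lipid-binding protein. JAG1, the Notch ligand, had 1312 and 1540 normalized counts in scramble cells at 0 min and 2322 and 2655 at 240 min, against 681 and 1226, then 1605 and 2701, in shLAD1 cells. It rose by 0.80 ± 0.05 and by 1.19 ± 0.05 (difference 0.38 ± 0.07, limma-trend adjusted p = 0.0271). RUNX1, a Runt family transcription factor, rose by 0.16 ± 0.05 in scramble cells and by 0.49 ± 0.05 in shLAD1 cells. Its difference of 0.33 ± 0.07 was the closest to the threshold on the inner side (limma-trend adjusted p = 0.046). OSBP2, of the oxysterol-binding protein family, rose by 0.86 ± 0.10 in shLAD1 cells and stood at 0.17 ± 0.10 in scramble cells, where it was not called. Its difference was 0.69 ± 0.14 (limma-trend adjusted p = 0.0353), with 0.63 and 0.75 in the 2 numbers. The levels themselves differed more, since OSBP2 reached 695 normalized counts at 240 min in shLAD1 number 1 and 346 in number 2.

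For 3 genes a fall in scramble cells had no counterpart in shLAD1 cells. GUCY1A3, a subunit of the soluble guanylate cyclase that senses nitric oxide, had 1121 and 1291 normalized counts in scramble cells at 0 min and 853 and 920 at 240 min. The shLAD1 counts were 361 and 612 at 0 min, and 399 and 650 at 240 min, below scramble in every library. It fell by 0.44 ± 0.06 in scramble cells and stood at 0.12 ± 0.06 in shLAD1 cells, a difference of 0.56 ± 0.09 (limma-trend adjusted p = 0.00532). SPIRE1, an actin nucleator, fell by 0.37 ± 0.06 in scramble cells and stood at 0.06 ± 0.06 in shLAD1 cells, a difference of 0.43 ± 0.08. PLK2, a polo-like kinase, fell by 0.20 ± 0.05 in scramble cells and rose by 0.20 ± 0.05 in shLAD1 cells.

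TXNIP and TSC22D3 fell late in both kinds of cell, and less in shLAD1 cells. TXNIP, which binds thioredoxin and restrains glucose uptake, went from 1306 and 1320 normalized counts to 340 and 263 in scramble cells, and from 2260 and 2674 to 779 and 852 in shLAD1 cells. It was higher in every shLAD1 library than in any scramble library of the same time. It fell by 2.13 ± 0.07 in scramble cells and fell by 1.59 ± 0.07 in shLAD1 cells (difference 0.54 ± 0.10, limma-trend adjusted p = 0.027). TSC22D3, a glucocorticoid-induced leucine zipper gene, fell by 2.24 ± 0.06 in scramble cells and fell by 1.82 ± 0.06 in shLAD1 cells (difference 0.42 ± 0.08, limma-trend adjusted p = 0.0437). Its difference was 0.60 in number 1 and 0.25 in number 2, and without shLAD1 240 min number 1 it was 0.27 and not called (adjusted p = 0.113).

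All 14 genes with a difference below 0 rose in scramble cells, where 25.3% of all genes tested were called higher. In shLAD1 cells 10 of them rose (24.7% of all genes tested), BARX2 fell (21.6%), and PDE4B, DST and GBP2 were not called. Of the 13 genes with a difference above 0, 7 rose and 5 fell in scramble cells (22.9% of all genes tested fell), and 9 rose and 2 fell in shLAD1 cells. The scramble change enters the difference with a minus sign, so selecting genes on the difference by itself tilts these counts. The shares of all genes are given as background and not as a test. In either direction 48.1% of genes tested were called in scramble cells and 46.2% in shLAD1 cells. The split by direction depends on scaling: with total-count scaling 31.7% of the genes called in scramble cells were higher, against 52.5% with the deposited size factors, and in shLAD1 cells 32.2% against 53.3%.

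CPA4 had the smallest adjusted p among the genes that rose less in shLAD1 cells. It encodes carboxypeptidase A4, a secreted metallopeptidase. Its normalized counts in scramble cells were 2288 and 1598 at 0 min and 4344 and 2845 at 240 min. In shLAD1 cells they were 2548 and 1992 at 0 min and 3267 and 2503 at 240 min. Number 1 was above number 2 in every group, and the groups overlapped at both times. Within each number the order changed sides: shLAD1 was the higher at 0 min and scramble the higher at 240 min. CPA4 rose by 0.88 ± 0.05 in scramble cells and by 0.34 ± 0.05 in shLAD1 cells. The difference was -0.53 ± 0.07 (limma-trend adjusted p = 0.000177), with -0.57 and -0.50 in the 2 numbers.

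Some of the 14 genes code for cytoskeletal proteins, as does SPIRE1 on the other side of 0. MYO1E, a class I myosin, had 612 and 578 normalized counts in scramble cells at 0 min and 3168 and 2950 at 240 min. In shLAD1 cells it had 915 and 795 at 0 min and 3008 and 3119 at 240 min. The groups were apart at 0 min and overlapped at 240 min. MYO1E rose by 2.36 ± 0.06 and by 1.84 ± 0.06, a difference of -0.52 ± 0.09 (limma-trend adjusted p = 0.00955).

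PALLD, the actin scaffold palladin, rose by 1.19 ± 0.06 in scramble cells and by 0.77 ± 0.06 in shLAD1 cells. Its difference was -0.43 ± 0.09, with -0.62 in number 1 and -0.24 in number 2. MISP, an actin-associated protein of the cell cortex and mitotic spindle, went from 323 and 215 to 736 and 528 normalized counts in scramble cells and from 624 and 504 to 993 and 846 in shLAD1 cells. It was higher in shLAD1 cells at both times without overlap. Its difference was -0.53 ± 0.11 (limma-trend adjusted p = 0.041). DST, a plakin that ties intermediate filaments to hemidesmosomes, rose by 0.44 ± 0.05 in scramble cells and stood at 0.10 ± 0.05 in shLAD1 cells, where it was not called.

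The receptor gene IL6R rose less in shLAD1 cells while the cytokine genes above rose more. IL6R, the interleukin 6 receptor, had 25.9 and 19.5 normalized counts in scramble cells at 0 min and 261 and 247 at 240 min. In shLAD1 cells it had 48.3 and 64.1 at 0 min and 221 and 308 at 240 min. The 0 min groups were apart, and at 240 min the scramble values lay between the shLAD1 values. It rose by 3.44 ± 0.18 and by 2.21 ± 0.18 (difference -1.23 ± 0.25, limma-trend adjusted p = 0.0353). IL1RN, the interleukin 1 receptor antagonist, rose by 1.41 ± 0.11 in scramble cells, from 87.0 and 53.5 normalized counts, and by 0.63 ± 0.11 in shLAD1 cells, from 515 and 214. GBP2, an interferon-inducible GTPase, rose by 0.48 ± 0.06 in scramble cells and stood at -0.04 ± 0.06 in shLAD1 cells (difference -0.51 ± 0.08, limma-trend adjusted p = 0.00458).

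PDE4B, which degrades cyclic AMP, had the lowest difference of the called genes and the lowest counts. It had 58.0 and 47.3 normalized counts in scramble cells at 0 min and 173 and 229 at 240 min. The shLAD1 counts were 129 and 39.7 at 0 min and 123 and 72.0 at 240 min. Number 1 of shLAD1 cells was the highest library at 0 min and number 2 the lowest, and both lay below the scramble libraries at 240 min. The difference was -1.52 ± 0.29 (limma-trend adjusted p = 0.0329), and it was -1.64 in number 1 and -1.41 in number 2. The call was lost without shLAD1 0 min number 1 (-1.21, adjusted p = 0.372), shLAD1 240 min number 1, scramble 0 min number 2 or scramble 240 min number 2, without a filter on low values and with DESeq2.

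Lipid enzymes and a homeobox gene were among the remaining genes. MGLL, which breaks down monoacylglycerols, rose by 1.64 ± 0.08 in scramble cells and by 1.05 ± 0.08 in shLAD1 cells, and was higher in shLAD1 cells at both times. LPCAT1, which remodels phosphatidylcholine, rose by 0.97 ± 0.06 and by 0.58 ± 0.06. BARX2, a homeobox transcription factor, rose by 0.27 ± 0.07 in scramble cells and fell by 0.29 ± 0.07 in shLAD1 cells (difference -0.56 ± 0.09, limma-trend adjusted p = 0.00828). FAM83B had a difference of -0.58 ± 0.12 and SH3RF2 of -0.63 ± 0.13, and both rose in either kind of cell.

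Most of these calls were lost in some of the fits that left out a library. Such a fit also has fewer libraries to measure the spread. A lost call therefore does not show that the left-out library drove it. Without shLAD1 0 min number 1 the JAG1 difference stayed at 0.38. Leaving out a scramble 40 min library left the differences of TSC22D3, RUNX1, DST, LPCAT1 and FAM83B unchanged. Of the 12 limma-trend fits that each left out a library, GBP2 was called in 10, GUCY1A3 in 9, and CXCL8, MAFF, PLK2, MYO1E, BARX2, MGLL and PDE4B in 8. OSBP2, TXNIP and IL1RN were called in 7, SPIRE1, PALLD, SH3RF2 and IL6R in 6, and JAG1 and MISP in 5. TSC22D3, RUNX1, DST and LPCAT1 were called in 3 and FAM83B in 2, and these were also lost without a scramble 40 min library. DESeq2 called CXCL8, LIF, LAD1, IER3, CPA4 and GBP2 only.

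**Figure D3:**
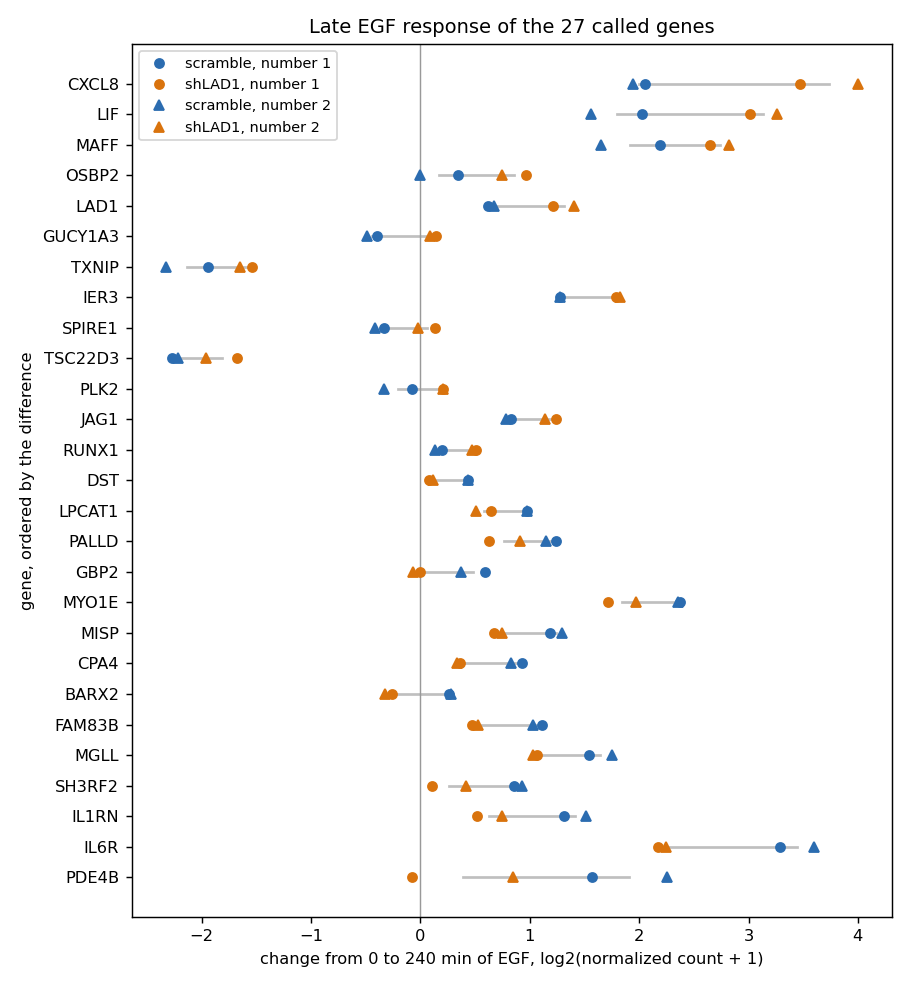
Change from 0 to 240 min of EGF on the log2(normalized count + 1) scale for the 27 called genes, ordered by the difference; blue marks scramble, orange shLAD1, circles number 1 and triangles number 2, and a grey bar joins the means. Blue and orange marks do not overlap for any of these genes, which their selection on these same changes largely fixes. The bars are longest for CXCL8, LIF, IL6R and PDE4B.

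The difference of the responses equals the level gap between shLAD1 and scramble cells at 240 min minus the gap at 0 min, so the same 0 min libraries enter both. Selecting genes on the difference therefore favours a 0 min gap of the opposite sign. Of the 13 genes with a difference above 0, 11 were lower in shLAD1 cells at 0 min. Of the 14 with a difference below 0, 13 were higher in shLAD1 cells at 0 min. The gap was narrower at 240 than at 0 min for 18 of the 27 genes, against 50.5% of all genes tested. It closed almost fully for LIF (-1.33 at 0 min and 0.02 at 240 min), MYO1E (0.52 and 0.00), IL6R (1.27 and 0.04) and RUNX1 (-0.36 and -0.03). It was wider at 240 min for the other 9 genes. On 1 side of 0 these were TXNIP (0.90 and 1.44), OSBP2 (0.08 and 0.77) and LPCAT1 (-0.22 and -0.61). Among these 9 the gap changed sides for PDE4B (0.45 and -1.08), BARX2 (0.00 and -0.56), TSC22D3 (-0.04 and 0.38), CPA4 (0.24 and -0.30), PALLD (0.19 and -0.24) and GBP2 (0.25 and -0.26). Of all 27 called genes it changed sides for 11. These gaps are given as values without a test.

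**Figure D4:**
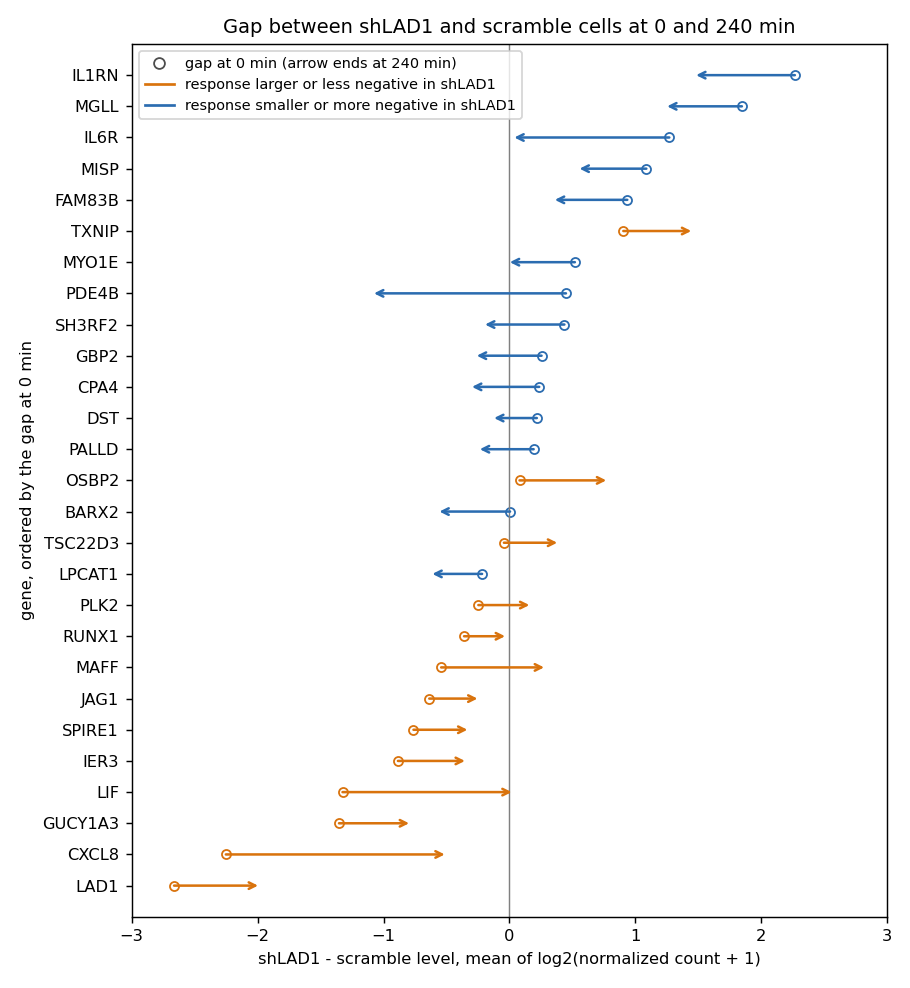
Gap between shLAD1 and scramble cells (mean of log2(normalized count + 1), shLAD1 minus scramble) for the 27 called genes; the open circle is the gap at 0 min and the arrow ends at the gap at 240 min. Most arrows point toward 0, from -2.25 to -0.51 for CXCL8 and from 2.27 to 1.48 for IL1RN, while those of TXNIP and OSBP2 point away from it.

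The 250 bases before the gene start are shown for 4 of these genes: the shRNA target, a cytokine gene that rose more in shLAD1 cells, and the peptidase and myosin genes that rose less. They are RefSeq sequence of build GRCh38.p14, 5′ to 3′ on the strand of the gene, with motif matches in capitals. CXCL8 is on the plus strand at chr4:73740319-73740568, LAD1 on the minus strand at chr1:201399325-201399574, CPA4 on the plus strand at chr7:130292911-130293160 and MYO1E on the minus strand at chr15:59372872-59373121.
CXCL8: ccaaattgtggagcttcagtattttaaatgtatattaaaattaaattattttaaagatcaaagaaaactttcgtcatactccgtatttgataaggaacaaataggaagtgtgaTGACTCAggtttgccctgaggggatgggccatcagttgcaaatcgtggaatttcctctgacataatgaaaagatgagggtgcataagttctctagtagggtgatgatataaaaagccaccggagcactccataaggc
LAD1: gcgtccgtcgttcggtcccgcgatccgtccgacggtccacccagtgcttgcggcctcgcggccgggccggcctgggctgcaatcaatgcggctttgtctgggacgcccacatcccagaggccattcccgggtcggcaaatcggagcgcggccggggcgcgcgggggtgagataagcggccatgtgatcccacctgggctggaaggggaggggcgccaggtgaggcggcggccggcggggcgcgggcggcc
CPA4: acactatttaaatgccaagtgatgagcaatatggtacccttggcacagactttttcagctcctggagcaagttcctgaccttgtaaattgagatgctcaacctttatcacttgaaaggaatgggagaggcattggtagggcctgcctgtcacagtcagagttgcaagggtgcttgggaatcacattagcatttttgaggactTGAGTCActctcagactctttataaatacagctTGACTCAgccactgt
MYO1E: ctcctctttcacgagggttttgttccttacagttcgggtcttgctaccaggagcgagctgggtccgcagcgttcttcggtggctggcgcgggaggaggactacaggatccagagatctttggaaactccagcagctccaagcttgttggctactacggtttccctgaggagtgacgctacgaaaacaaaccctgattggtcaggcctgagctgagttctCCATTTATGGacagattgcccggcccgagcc
Both strands were searched for the AP-1 motif TGANTCA, the E-box CACGTG and the cyclic AMP element TGACGTCA. The NF-kB consensus GGGRNNYYCC and the CArG box CCWWWWWWGG bound by SRF were also searched. Here R is A or G, Y is C or T, W is A or T and N is any base. A site whose letters depart from these patterns is missed, so the lack of a match does not mean the lack of a site. This holds for NF-kB in CXCL8, where the consensus had no match. CXCL8 holds an AP-1 match 137 to 131 bases before the start, and CPA4 holds 2, at 48 to 42 and at 15 to 9 bases. MYO1E holds a CArG box 31 to 22 bases before the start. LAD1 holds no match in this window. No match of one motif overlaps a match of another. An AP-1 match lies in 6.57% of 35116 such windows of RefSeq, the NF-kB consensus in 9.96%, the E-box in 6.34%, the cyclic AMP element in 1.65% and a CArG box in 1.16%. RefSeq gives 41 windows for 22 of the 27 called genes. The AP-1 motif lies in 2 of 19 windows of genes with a difference above 0 and in 3 of 22 windows of genes with a difference below 0. MAFF has an E-box in each of its 2 windows and the cyclic AMP element in the first. A match describes the letters and shows neither binding nor a cause.

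Some genes had differences as large as those called and did not pass the test. EGR1, an immediate early transcription factor, had 363 and 410 normalized counts in scramble cells at 0 min and 698 and 510 at 240 min. The shLAD1 counts were 358 and 646 at 0 min and 1997 and 1495 at 240 min. The shLAD1 libraries were higher at 240 min without overlap. The difference was 1.22 ± 0.48 (limma-trend adjusted p = 0.712), and it was called only where the variance was moderated without the robust option (adjusted p = 0.0493). CHAC1, a glutathione-degrading enzyme of the stress response, had a difference of 0.92 ± 0.22 (limma-trend adjusted p = 0.156), and was called without scramble 240 min number 1 or shLAD1 240 min number 2. PPP1R3C, which targets a phosphatase to glycogen, stood at 0.86 ± 0.31.

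Below 0, IL1RL1, the interleukin 33 receptor, was listed at 0 in both scramble libraries at 0 min and had 171 and 212 normalized counts at 240 min. In shLAD1 cells it had 5.13 and 12.2 at 0 min and 298 and 888 at 240 min. No fold is given for it, and its sign depends on the pseudocount. With a pseudocount of 0.5 limma-trend called it below 0 (adjusted p = 0.0431), and with a pseudocount of 5 its value was 0.012. CREB5, a transcription factor of the CREB family, stood at -0.93 ± 0.33, and TAGLN, the actin-binding transgelin, at -0.85 ± 0.44. The scramble libraries of TAGLN at 0 min were far apart, at 284 and 65.8 normalized counts. Just outside the threshold was STC2, with 0.50 (adjusted p = 0.0519), against RUNX1 just inside it.

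Gene lists are described by counts, beside 50.3% of all genes above 0, 51.4% with the same sign in both numbers, and a median difference of 0.00. Of 27 immediate early genes 22 lay above 0 and 19 had the same sign in both numbers, with a median of 0.25. IER3 and MAFF were called. Of 20 NF-kB and inflammatory cytokine genes 17 lay above 0, 10 had the same sign in both numbers, CXCL8 and LIF were called, and the median was 0.34. That median was 0.02 in number 1 and 0.66 in number 2, so the numbers were far apart. Of 18 cholesterol synthesis genes 18 lay above 0 and 16 had the same sign in both numbers. None was called by limma-trend, edgeR, voom or DESeq2, and 9 had an unadjusted p under 0.05 in limma-trend, where 7.26% of all genes did. Their median was 0.17, with INSIG1, which retains the sterol sensor in the endoplasmic reticulum, at 0.32 ± 0.09 (limma-trend adjusted p = 0.252) and STARD4, a sterol carrier, at 0.32 ± 0.16. On the 8 libraries alone limma-trend called INSIG1 (adjusted p = 0.0177), as it did without either shLAD1 40 min library. Of 20 ATF4 and unfolded protein stress genes 17 lay above 0, with a median of 0.11. None was called by limma-trend, where 6 had an unadjusted p under 0.05, and edgeR called 2, voom 2 and DESeq2 0. SESN2, a stress-induced regulator of mTORC1, stood at 0.72 ± 0.17 (limma-trend adjusted p = 0.178).

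Cytoskeletal and adhesion lists leaned the other way. Of 35 actin cytoskeleton genes 28 lay below 0, with a median of -0.09, which was -0.11 in number 1 and -0.03 in number 2, and 20 had the same sign in both numbers. None was called by limma-trend, edgeR, voom or DESeq2, and 10 had an unadjusted p under 0.05 in limma-trend, against 7.26% of all genes. SVIL, supervillin, stood at -0.33 ± 0.08 (limma-trend adjusted p = 0.105) and the tropomyosin TPM4 at -0.30 ± 0.09. SVIL was called without shLAD1 240 min number 2 and TPM4 without shLAD1 0 min number 2. Of 22 integrin and focal adhesion genes 17 lay below 0 and 14 had the same sign in both numbers, with a median of -0.07, 8 at an unadjusted p under 0.05 in limma-trend and none called by the 4 tools. TNS4, a tensin of focal adhesions, had 0.06 as its limma-trend adjusted p at a difference of -0.77 ± 0.16, and the integrin subunit ITGB6 stood at -0.25 ± 0.06. TNS4 was called on the 8 libraries alone (limma-trend adjusted p = 0.0329), with upper-quartile scaling (adjusted p = 0.047), and without shLAD1 0 min number 2 or either shLAD1 40 min library. Of 20 glycolysis and hypoxia genes 17 lay below 0 and 13 had the same sign in both numbers, with a median of -0.11 (-0.04 and -0.20 in the 2 numbers) and 3 at an unadjusted p under 0.05. None was called by the 4 tools, and PFKFB4, a regulator of glycolytic flux, stood at -0.52 ± 0.19. Of 17 basal and hemidesmosome genes 12 lay below 0 and 10 had the same sign in both numbers, and LAD1 and DST were called, in opposite directions. The median of this list was -0.14, with 0.02 in number 1 and -0.23 in number 2, so it lay below 0 in number 2 only. Of 16 SRF and MRTF targets 11 lay below 0, with a median of -0.08. That median was -0.14 in number 1 and 0.08 in number 2, so the numbers disagreed in sign. Of 17 invasion and protease genes 12 lay below 0, with a median of -0.14 (-0.07 and -0.10 in the 2 numbers). The signs of all list medians were the same with TMM, upper-quartile and total-count scaling.

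The following lists had medians nearer to that of all genes, although ribosome biogenesis and mitosis genes leaned upward by count. Of 24 ribosome biogenesis genes, all of which rose in the mean of both kinds of cell, 16 lay above 0 with a median of 0.05. Of 24 mitosis genes 16 lay above 0 with a median of 0.04. Of 21 feedback inhibitors of ERK and EGFR 12 lay above 0, with SPRY4, a Sprouty inhibitor, at 0.86 ± 0.49 and SOCS3, an inhibitor of cytokine signalling, at 0.73 ± 0.52. SOCS3 was called at 1.48 without shLAD1 0 min number 1. Of 25 interferon-stimulated genes 11 lay above 0, and of 31 cornified envelope genes 14. In the list of 25 genes repressed by growth factors 13 lay above 0 and TXNIP was called.

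**Figure D5:**
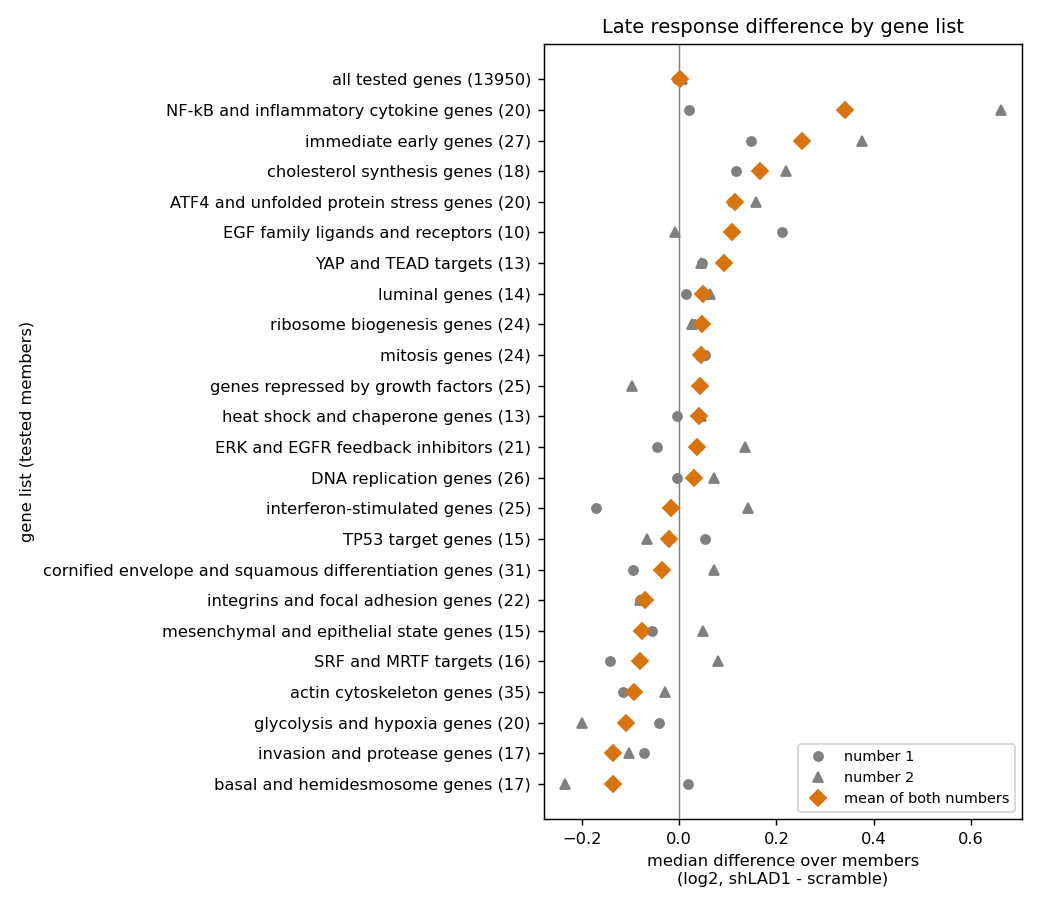
Median difference of late responses (log2, shLAD1 minus scramble) over the tested members of each gene list with at least 10 tested members; diamonds are the mean of both numbers, circles number 1 and triangles number 2, and the number in brackets counts tested members. NF-kB and immediate early lists lie furthest above 0, at 0.34 and 0.25, with the numbers far apart for NF-kB, and the cholesterol list lies above 0 in both numbers.

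The size of the late response as a whole was compared over genes grouped by their mean response in both kinds of cell. With libraries of equal noise that mean would not fix the sign of the difference, but the shLAD1 libraries lay further apart than the scramble libraries, so the counts below are a description only. The mean response rose for 4209 genes (30.2%) and fell for 4134 (29.6%), 59.8% in all, with 50.4% of called genes higher, against 31.4% with total-count scaling. Among 505 genes whose mean rose by more than 1, 58.8% had a difference below 0 and the median difference was -0.06. Among 389 genes whose mean fell by more than 1, 39.6% had a difference below 0 and the median was 0.08. For the genes that rose, the median was -0.11 in number 1 and 0.01 in number 2. Among the genes that fell it was 0.14 and 0.07. With total-count scaling the value for number 2 of the set that fell was 0.0095, and among the 24 genes whose mean fell by more than 2 it was -0.03, so the direction in number 2 depended on the setting. The median changes themselves were 1.41 in scramble and 1.36 in shLAD1 cells for the set that rose, and -1.34 and -1.23 for the set that fell.

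EGFR and FLNA, chosen for the study's question, showed no called difference with all libraries. EGFR stood at 0.14 ± 0.11, with 0.32 in number 1 and -0.05 in number 2, and was called at 0.32 (limma-trend adjusted p = 0.0176) without shLAD1 240 min number 2. FLNA, filamin A, stood at -0.14 ± 0.08 (limma-trend adjusted p = 0.767). FOSL1, an AP-1 subunit among the strongest late responders, stood at 0.45 ± 0.51. DUSP6, the ERK phosphatase, went in opposite directions in the 2 numbers, with -0.58 and 0.70.

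Basal and epithelial markers were present in every library, with 39623 to 78195 normalized counts of KRT5 and 8949 to 13776 of CDH1. The receptor genes ESR1 (18 to 29) and PGR (0 to 1.03) were low, and ERBB2 stood at 1520 to 2566. Of 10 blood cell markers 8 stayed under 10 normalized counts in every library, CD14 and CD68 being the exceptions. Their summed level ran from 1824 to 1939 in scramble cells at 0 min and 2057 to 2314 at 240 min, and from 1844 to 2584 and 2162 to 2876 in shLAD1 cells. Of 11 fibroblast and endothelial markers 6 stayed under 10, with DCN at 0. The sum of these 11 ran from 331 to 402 in scramble cells at 0 min, 285 to 303 at 240 min, and 692 to 858 and 558 to 608 in shLAD1 cells, mostly COL1A1. The part of other cells in the results was not tested, and in such bulk samples fewer cells and less RNA per cell cannot be told apart. The 12 libraries held 12428618 to 16721013 reads, and the share of reads in the 10 highest genes was 3.29% to 3.93%.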

How the data were processed

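The authors deposited a table of 26365 genes with a signal per library. Per the submitters' processing notes, STAR, DESeq2 and build hg19 were used (tool versions, counter, annotation and strand: not given in the sources used here), so reads of a gene and an antisense partner cannot be told apart. As tested on the values, this deposited signal is a read count divided by a size factor: division by the smallest value above 0 gave whole reads within 0.001 for 100% of values in every library.

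limma-trend (limma 3.58.1, R 4.3.3, robust) was run on log2(signal + 1), which understates changes of low genes, over 13950 genes that reached 10 normalized counts in 2 or more libraries. All 12 libraries entered, with a mean per population (shRNA by number) and time terms within each shRNA, leaving 4 residual degrees of freedom. The populations serve as the replicate block because the comparison takes changes within a number. Deviations from group means correlated at 0.645 to 0.734 between times of the same kind of cell and at 0.247 to 0.307 between kinds. The labels do not say that numbers mark separate cultures, so p-values measure the spread between these libraries only. Libraries of a group differed beyond counting noise (chi-square per degree of freedom 9.04 to 22.6). The script was tested on simulated data.

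Recovered reads were used for edgeR 4.0.16 and DESeq2 1.42.0 as alternatives, beside other blocks, scalings, filters, pseudocounts and left-out libraries. Named genes are every called gene with a mean of at least 20, the 6 largest differences each way with a mean of at least 100 and the same sign in both numbers, called members of each of 26 lists or else up to 2 with the largest difference, and 8 fixed genes (a further fixed gene is not reported here); STC2 was chosen after its value was seen. Members and lists were chosen with earlier results of these data known. The list of mitochondrially encoded genes was not analysed here. Of the lists, those not described in the report had no called member.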

Additional observations from a re-analysis of the deposited data

Results flagged for a closer look

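For 27 genes the late response differed between the kinds of cell by a test of the difference itself, the time by shRNA term of limma-trend with 4 populations (adjusted p under 0.05, n = 2 libraries per group). Groups of 2 libraries do not allow a search for single outlying libraries. The differences above 0 were CXCL8 at 1.74, LIF at 1.34, MAFF at 0.82, OSBP2 at 0.69, LAD1 at 0.67 and GUCY1A3 at 0.56. Smaller ones were TXNIP at 0.54, IER3 at 0.53, SPIRE1 at 0.43, TSC22D3 at 0.42, PLK2 at 0.41, JAG1 at 0.38 and RUNX1 at 0.33. Below 0 were PDE4B at -1.52, IL6R at -1.23, IL1RN at -0.78, SH3RF2 at -0.63, MGLL at -0.59, FAM83B at -0.58 and BARX2 at -0.56. The others were CPA4 and MISP at -0.53, MYO1E at -0.52, GBP2 at -0.51, PALLD at -0.43, LPCAT1 at -0.40 and DST at -0.34. None was called without the population block.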

How the results depend on the processing

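The count of 27 called differences became 0 with no replicate block and 0 with a replicate block by number, 9 without a filter on low values and 6 with DESeq2. Leaving out 1 library gave 5 to 103. With edgeR 36.8% of called genes were above 0, against 48.1%. The late responses gave 6715 calls in scramble cells and 6450 in shLAD1 cells with the population block. With no replicate block these were 2813 and 2585, with the block by number 4249 in shLAD1 cells, and the mean response had 4885 calls against 8343. Leaving out 1 library gave 4861 to 7023, 4580 to 6536 and 7337 to 8379 for scramble, shLAD1 and the mean. The 27 called genes kept their direction in all 702 recomputed values and lost the call in 248. Part of the 702 values could not change sign. Changing the block, the filter or the variance moderation leaves the difference of a gene unchanged. So does leaving out one or all libraries of the intermediate time. The 27 genes were also selected on this same difference, so their kept direction is a description only. Among the 49 named genes not called, 10 of 1265 values changed sign. DUSP6 became -0.045 with edgeR and -0.076 with voom, and IL1RL1 0.012 with a pseudocount of 5. Without single libraries DUSP6 ran from -0.40 to 0.52, SOCS3 from -0.023 to 1.48, FOSL1 from -0.076 to 0.99, EGFR from -0.046 to 0.32 and CD14 from -0.090 to 0.037. The cause was not tested. Total-count scaling shifted the median change by -0.13 in scramble and -0.12 in shLAD1 cells. Low counts limit PDE4B, IL6R and CXCL8 at 0 min.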

Other observations

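The libraries of a group lay further apart in shLAD1 cells than in scramble cells. Compared with each other by chi-square, numbers 1 and 2 gave per degree of freedom 9.04, 11.9 and 9.26 in scramble cells at 0, 40 and 240 min, and 20.2, 22.6 and 20.7 in shLAD1 cells. Among the called genes JAG1 showed such a gap, with 681 and 1226 normalized counts in shLAD1 cells at 0 min, as did IL1RN with 515 and 214. KRT6A, a stress-induced keratin, had a difference of -0.72 ± 0.36 that was not called with all 12 libraries (limma-trend adjusted p = 0.776) and was called with the 8 libraries at 0 and 240 min alone (adjusted p = 8.41e-05) and without either 40 min library of shLAD1 cells. SESN2 was called by edgeR (adjusted p = 0.0376) and voom (adjusted p = 0.0421), and CDKN1A, the cell cycle inhibitor p21, by edgeR at -0.41 (adjusted p = 0.0383). With all 12 libraries and the deposited scaling limma-trend called neither. On the 8 libraries alone it called SESN2 (adjusted p = 0.049) and CDKN1A (adjusted p = 0.00992). It also called SESN2 without scramble 240 min number 1 and CDKN1A without scramble 0 min number 1, and either without a scramble 40 min library. CDKN1A was further called with upper-quartile scaling (adjusted p = 0.0464) and without a shLAD1 40 min library.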
